A study of Mus musculus with 13 samples.

Results

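The nuclear genes of the mitochondrial respiratory chain and of ATP synthase were examined in mouse liver. Members were taken by symbol, as every gene whose name begins with Nduf (complex I), Uqcr (complex III), Cox4 to Cox8 (complex IV) or Atp5 (ATP synthase, also called complex V). Pseudogenes and unnamed cDNA loci were left out, as were 10 probe sets shared by several symbols. A gene with several probe sets was represented by the one with the highest mean over the 13 arrays. This gave 83 members among 22180 genes, and 78 of them were bright enough to be tested, among 13308 tested genes. The rule used names and the mean over all arrays, and no group difference.

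The data are 13 Affymetrix gene arrays of RNA from the liver of male C57Bl/6J mice. All mice started a 60% fat diet at 6 weeks of age, as the labels state, and became obese on it over 4 weeks. In the 4 weeks that followed, the mice of 4 arrays kept the diet (HFD) and those of 4 arrays had it together with canagliflozin at 25 to 30 mg/kg (CANA). Those of 5 arrays were restricted by 15 to 30% in calories to match the weight of the CANA mice (CR). Every group carried the obesity diet, so no lean or chow-fed mice enter the comparisons, and all mice were male. Canagliflozin blocks SGLT2, the glucose transporter of the kidney tubule, and causes loss of glucose in the urine. Nothing in the labels ties an array to 1 animal, so a p-value reflects only how far these samples vary, which may be technical.

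The respiratory chain passes electrons from NADH through complex I, and from succinate through complex II, to ubiquinone, complex III, cytochrome c and complex IV, where oxygen is reduced. Complexes I, III and IV pump protons across the inner mitochondrial membrane, and ATP synthase uses their return flow to make ATP. Liver depends on this chain for the ATP and the redox balance that glucose production, urea synthesis and fatty acid oxidation need. Most subunits are encoded in the nucleus, and the few encoded by mitochondrial DNA were not analysed here. The factors NRF-1, GABP, YY1 and ERR-alpha, with the coactivator PGC-1alpha, are known regulators of these nuclear genes.

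Because these genes are known for shared promoter elements, the 250 bases before the RefSeq gene starts (GRCm38.p6) were searched for the core letters of those factors' sites. RefSeq windows matched 69 of the 83 members, with 74 windows in all because some genes have several starts. The NRF-1 core GCATGCGC was found on either strand in 8 of the 74 windows (10.8%), against 2.26% of all 32851 windows and 2.93% of the protein-coding ones. The ETS letters CCGGAAGT, to which GABP binds, were in 3 windows (4.05%, against 2.88% of all and 3.79% of the protein-coding windows). The YY1 letters AAGATGGC were in 1 (1.35%, against 1.56% and 1.5%) and the ERR letters TCAAGGTCA in 1 (1.35%, against 0.387% and 0.32%). The members' windows had a median GC content of 56.4% and a median of 15 CpG dinucleotides, against 52.4% and 6 in all windows and 55.6% and 10 in the protein-coding ones. A letter match is a description of the window and not a measured binding site.

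The 6 windows below belong to members that are named further down for their relation to the array number and that hold a match. They are thus a selection of members with a match. Cox5a and Cox7a2, named there too, had windows without a match. No match was found for Cox4i1, Ndufb3, Ndufb7, Ndufa5 or Ndufaf2 either, and not every member had a window. A tie between a match and the relation to the number was not tested. The 6 windows are written 5′ to 3′ on the gene's strand and end at the base before the start, with the matched letters in capitals. Ndufaf4 lies on the plus strand at chr4:24897833-24898082. The others lie on the minus strand, Uqcrh at chr4:116075071-116075320, Uqcr11 at chr10:80406822-80407071, Atp5g2 at chr15:102671048-102671297, Atp5g3 at chr2:73911327-73911576 and Atp5k at chr5:108434400-108434649.
Ndufaf4: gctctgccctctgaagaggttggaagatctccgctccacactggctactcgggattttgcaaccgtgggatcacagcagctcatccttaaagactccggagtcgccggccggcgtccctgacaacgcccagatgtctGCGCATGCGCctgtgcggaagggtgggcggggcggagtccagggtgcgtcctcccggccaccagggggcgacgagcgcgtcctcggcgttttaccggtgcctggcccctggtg
Uqcrh: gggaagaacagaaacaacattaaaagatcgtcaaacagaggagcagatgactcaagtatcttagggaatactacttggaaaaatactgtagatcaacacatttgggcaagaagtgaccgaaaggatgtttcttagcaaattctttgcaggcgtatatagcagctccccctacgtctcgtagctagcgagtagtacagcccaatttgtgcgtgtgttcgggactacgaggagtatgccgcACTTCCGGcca
Uqcr11: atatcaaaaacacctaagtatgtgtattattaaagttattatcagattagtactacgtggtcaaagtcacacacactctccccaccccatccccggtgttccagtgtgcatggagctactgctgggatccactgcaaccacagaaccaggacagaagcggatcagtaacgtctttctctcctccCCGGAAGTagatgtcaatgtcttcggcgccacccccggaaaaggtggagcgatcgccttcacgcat
Atp5g2: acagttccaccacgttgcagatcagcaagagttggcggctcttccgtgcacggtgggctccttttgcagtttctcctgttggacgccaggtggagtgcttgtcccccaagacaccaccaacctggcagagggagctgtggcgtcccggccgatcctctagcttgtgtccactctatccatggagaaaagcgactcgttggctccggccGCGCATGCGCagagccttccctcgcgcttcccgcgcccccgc
Atp5g3: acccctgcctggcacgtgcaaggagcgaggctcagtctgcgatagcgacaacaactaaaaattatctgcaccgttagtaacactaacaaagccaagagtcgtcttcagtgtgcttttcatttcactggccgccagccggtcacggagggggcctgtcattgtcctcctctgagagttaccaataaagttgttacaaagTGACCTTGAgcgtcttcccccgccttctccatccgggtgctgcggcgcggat
Atp5k: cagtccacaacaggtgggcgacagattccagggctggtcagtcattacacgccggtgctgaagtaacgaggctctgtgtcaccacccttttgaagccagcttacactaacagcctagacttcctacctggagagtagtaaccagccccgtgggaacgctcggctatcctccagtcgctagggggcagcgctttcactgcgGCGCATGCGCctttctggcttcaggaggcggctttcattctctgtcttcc
In Uqcrh and Uqcr11 the capitals mark the ETS letters, read on the opposite strand in Uqcrh. In Ndufaf4, Atp5g2 and Atp5k they mark the NRF-1 core, which matches on both strands of the same palindromic stretch. In Atp5g3 they mark the ERR letters, read on the opposite strand.

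The 78 tested members were 33 complex I subunits (6 core and 27 accessory), 7 complex I assembly factors, 7 subunits of complex III, 14 genes of the complex IV families and 17 of ATP synthase. Ndufa4 was described with complex IV, to which its protein is known to belong, while its relative Ndufa4l2 was counted by its name with the complex I accessory subunits. The 5 members below the brightness limit of 3.95 on the log2 scale were Cox6b2, Cox7b2, Cox8b and Cox8c, isoforms of complex IV subunits known from other tissues, and the assembly factor Ndufaf5. Their means were 3.87, 2.23, 2.83, 3.03 and 3.50. The dimmest tested member was the lung isoform Cox4i2 at 4.03, and the muscle isoforms Cox6a2 and Cox7a1 also passed the limit. All 8 hepatocyte markers passed it, and albumin (Alb) averaged 14.02 ± 0.08 (SD, n = 4) in HFD arrays, 13.97 ± 0.05 (n = 4) in CANA arrays and 14.03 ± 0.02 (n = 5) in CR arrays. The marker Tat was less even, at 12.93 ± 0.23, 13.36 ± 0.14 and 13.15 ± 0.23 in the same order. Of the 8 markers, 4 had a higher and 4 a lower mean in CANA than in HFD, and none was called. Of 7 muscle markers 5 passed, and of 4 fat markers 2.

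The arrays also carry a serial number from 1 to 14 in the labels (7 is not among them), and expression differed along it. Numbers 1 to 8 hold 2 HFD, 2 CANA and 3 CR arrays, and numbers 9 to 14 hold 2 of each. The labels do not say what the number stands for. Array medians lay between 4.07 and 4.13. Among 68 small nucleolar RNA genes, 18 passed the test for the number in limma, all with lower values at later numbers, against 0.376% of all tested genes in either direction. These RNAs guide the modification of ribosomal RNA.

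With canagliflozin, more genes of the chain had a higher than a lower mean relative to continued high-fat feeding, and none was called different. No member passed the test in CANA against HFD (limma, adjusted p under 0.05), where 0.165% of all tested genes did. At an unadjusted p under 0.05 there were 3 members, against 8.82% of all tested genes. Of the 78 members 52 (66.7%) had a higher mean in CANA, beside 46.1% of all tested genes. The median difference was 0.049 on the log2 scale, beside -0.01 for all tested genes. The differences ran from -0.24 for Cox6a2 to 0.35 for Ndufa1. The 95% interval lay within 0.5 of 0 for 68 of the 78 members (87.2%), beside 81.1% of all tested genes, so such intervals were not particular to the members.

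The clearest separation was in Ndufaf6, an assembly factor of complex I. Its log2 values were 6.29, 6.21, 6.16 and 6.23 in the CANA arrays. They were 5.67, 6.07, 6.08 and 5.74 in HFD, and 6.03, 6.03, 5.89, 5.77 and 5.75 in CR. Every CANA array was above every HFD and every CR array, and HFD and CR covered about the same range. The CANA minus HFD difference was 0.33 (SE 0.11, 95% interval 0.10 to 0.57, limma adjusted p = 0.328). Without 1 array at a time the difference was 0.26 to 0.39, and the adjusted p 0.287 to 0.561. Ndufaf6 was the only member whose CANA and HFD arrays did not overlap, a pattern seen in 4.9% of all tested genes.

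Among the core subunits of complex I, which include the carriers of its flavin and iron-sulfur centres, Ndufs7 had the smallest p. This subunit lies in the arm that passes electrons to ubiquinone. Its values were 9.50, 9.26, 9.56 and 9.68 in HFD and 9.80, 9.65, 9.78 and 9.80 in CANA. In CR they were 9.67, 9.66, 9.69, 9.87 and 9.67. HFD held the 3 lowest arrays, and its highest overlapped both other groups. The CANA minus HFD difference was 0.26 (SE 0.10, limma adjusted p = 0.425) and the CR minus HFD difference 0.21 (SE 0.09, adjusted p = 0.999). Both comparisons use the same HFD arrays. The other 5 core subunits, Ndufs1, Ndufs3, Ndufs8, Ndufv1 and Ndufv2, differed between CANA and HFD by -0.05 to 0.13.

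Of the 27 accessory subunits of complex I, 21 had a higher mean in CANA than in HFD, with a median of 0.050. Ndufa1, a small membrane-arm subunit needed for assembly, had the largest difference. It measured 8.22, 8.26, 7.65 and 7.95 in HFD and 8.36, 8.50, 8.12 and 8.50 in CANA. The CR arrays gave 8.08, 8.12, 8.32, 8.16 and 7.89. The lowest CANA array lay below the 2 highest HFD arrays. The CANA minus HFD difference was 0.35 (SE 0.14, limma adjusted p = 0.446). It was 0.19 within serial numbers 1 to 8 and 0.51 within 9 to 14.

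Ndufa8, an accessory subunit facing the intermembrane space, had values of 9.51, 9.32, 9.46 and 9.98 in HFD. They were 9.78, 9.90, 9.84 and 9.77 in CANA and 9.74, 10.04, 9.78, 9.83 and 9.81 in CR. HFD again held the 3 lowest arrays, but also the second highest of all 13. The differences from HFD were 0.26 in CANA (SE 0.12) and 0.27 in CR (SE 0.12), with limma adjusted p of 0.579 and 0.999. A dimmer probe set of Ndufa8 gave 0.32 and 0.28. Within serial numbers 1 to 8 the CANA and CR differences were 0.43 and 0.44, and within 9 to 14 they were 0.08 and 0.10.

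In complex III the 7 genes differed by -0.03 to 0.10 between CANA and HFD, and 3 of them had a higher mean in CANA than in HFD. Uqcrc1, a core subunit, differed by -0.01 and Uqcrfs1, the Rieske iron-sulfur protein, by 0.10. All 7 intervals lay within 0.5 of 0.

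In complex IV, 7 of the 10 regular subunits had a higher mean in CANA, with a median of 0.086. Cox4i1, the regulatory subunit 4 of most tissues, differed by 0.22 (SE 0.13, limma adjusted p = 0.707). Cox5a and Cox5b, which surround the catalytic core, differed by 0.07 and -0.12. A second, much dimmer probe set of Cox5b (mean 4.30) gave 0.24, opposite in sign. Cox7a2 differed by 0.20 and the supercomplex factor Cox7a2l by 0.11. The isoforms of other tissues, Cox4i2, Cox6a2 and Cox7a1, differed by -0.12, -0.24 and 0.06.

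In ATP synthase, the 5 subunits of F1, the catalytic head with its central stalk, lay between -0.05 and 0.05. Among them Atp5a1 was at -0.003 and Atp5b at 0.04. Second probe sets gave -0.06 for Atp5d and 0.14 for Atp5e. The 12 genes of Fo and the stalk, which form the membrane part and the outer stalk, spread more widely. They ran from -0.18 for Atp5g1 to 0.31 for Atp5j2. The genes Atp5g1, Atp5g2 and Atp5g3 encode the same mature ring subunit c, and differed by -0.18, -0.10 and 0.20. Atp5j2 measured 3.71 to 4.21 in HFD, so it lay at the brightness limit. None of the 17 passed the test or reached an unadjusted p under 0.05.

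**Figure D1:**
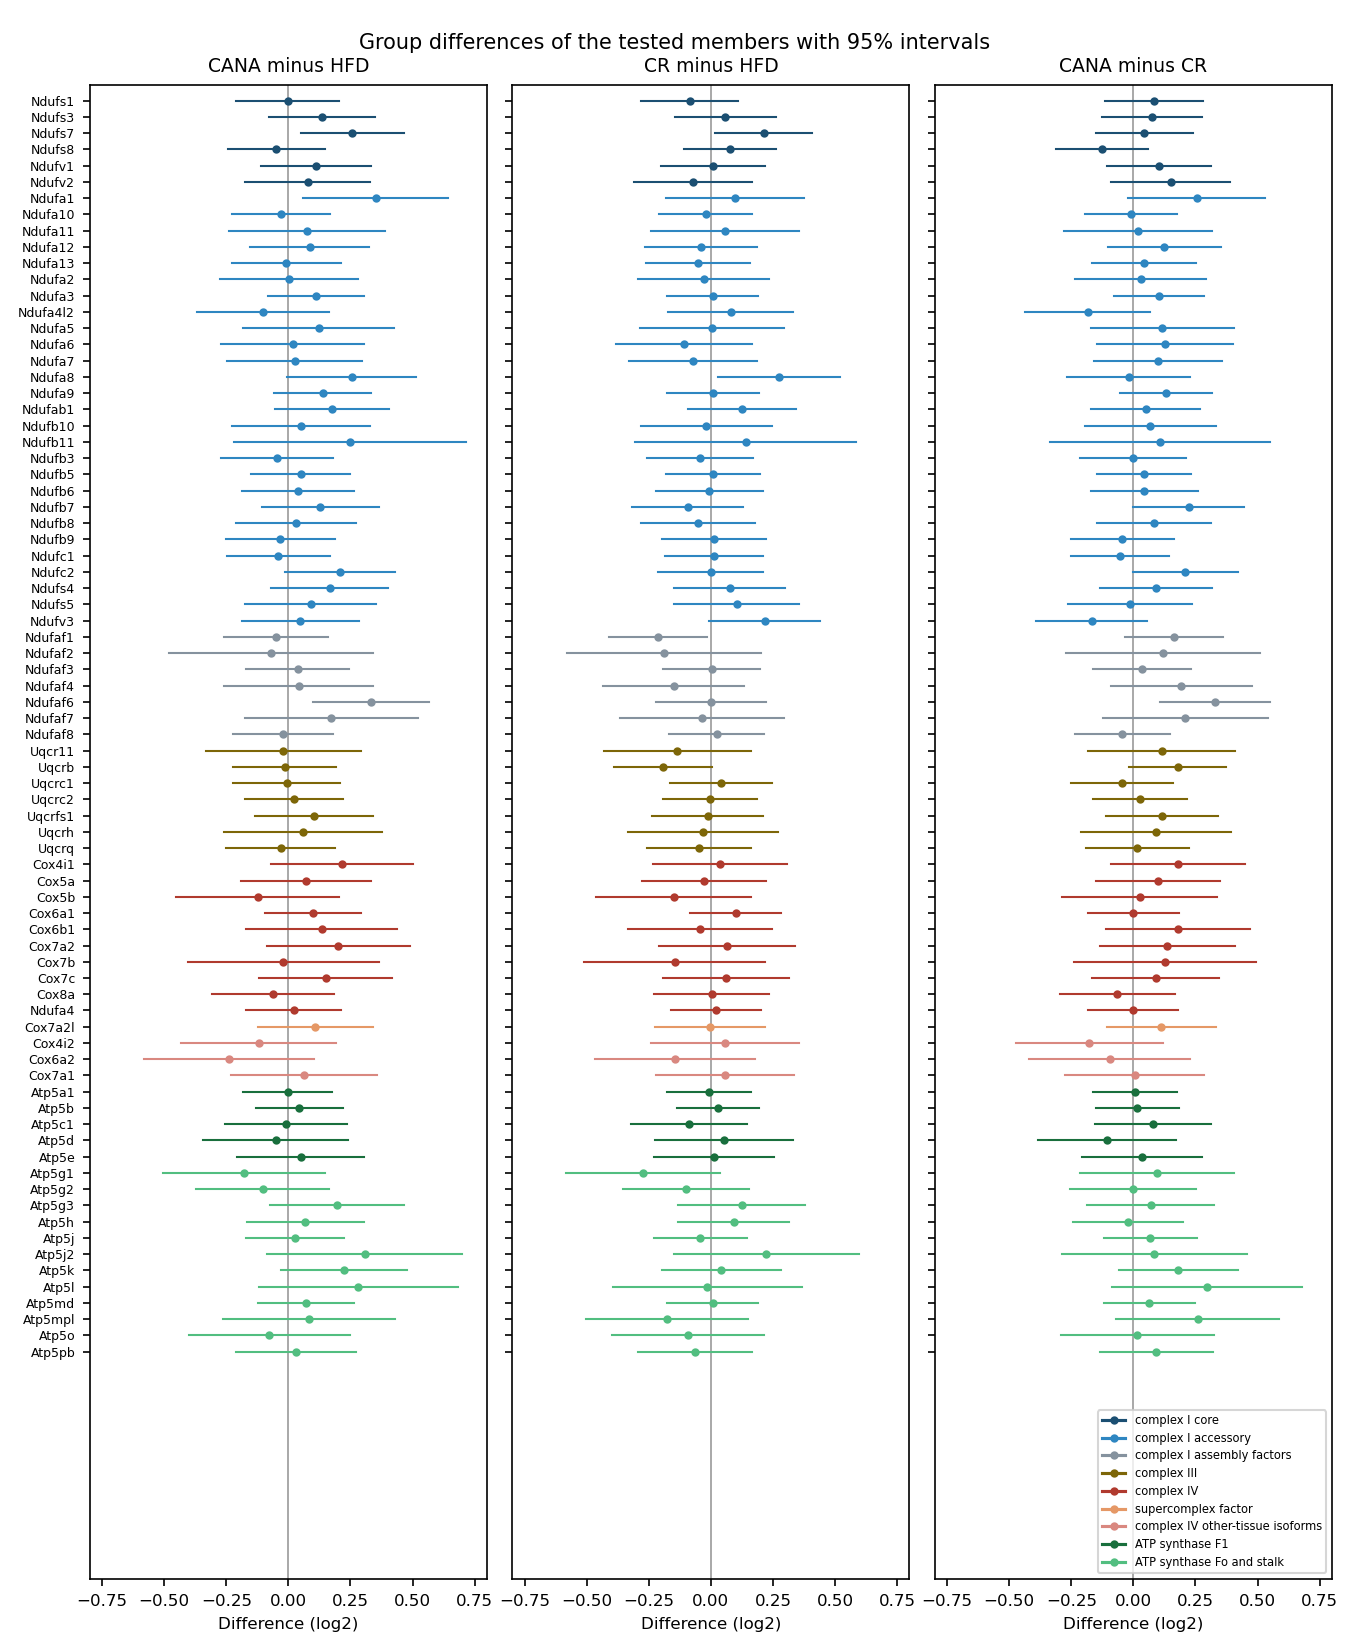
Differences between groups (x axis, log2) for each of the 78 tested members (y axis, ordered by complex and role), with 95% intervals as lines and 1 panel for each comparison. Most intervals cross 0, and Ndufaf6 stands to the right of 0 in both panels that involve CANA.

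With caloric restriction as many members had a higher as a lower mean than under HFD in the fit without array numbers. That balance was not seen within either set of serial numbers, where 23 (numbers 1 to 8) and 56 (9 to 14) of the 78 were above 0. No member passed in CR against HFD (limma, adjusted p under 0.05), and 0% of all tested genes did. At an unadjusted p under 0.05 there were 3 members, Ndufa8, Ndufs7 and Ndufaf1, against 3.74% of all tested genes. Over all arrays 39 members were above and 39 below 0, and 46.4% of all tested genes were above 0. The members' median was 0.0004, beside -0.01 for all tested genes. Differences ran from -0.27 for Atp5g1 to 0.27 for Ndufa8, and 71 intervals (91%) lay within 0.5 of 0, beside 88.1% of all tested genes. No member had CR and HFD arrays that did not overlap, against 1.17% of all tested genes.

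Ndufaf1, an assembly factor of the membrane arm of complex I, was the 1 member of these 3 with a lower mean in CR. It measured 7.25, 7.42, 7.28 and 7.20 in HFD and 7.14, 6.86, 7.20, 7.21 and 6.97 in CR. The CANA arrays were at 7.29, 7.32, 7.23 and 7.12. The 2 lowest values of all were CR arrays, and the highest CR arrays reached the range of HFD. The difference was -0.21 (SE 0.09, limma adjusted p = 0.999).

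In complex III 6 of 7 genes had a lower mean in CR than in HFD. Uqcrb, which binds near the ubiquinone site, differed most. It measured 11.28, 11.41, 11.28 and 11.32 in HFD and 11.29, 11.07, 11.00, 11.05 and 11.25 in CR. In CANA the values were 11.26, 11.42, 11.13 and 11.42. CR held the 3 lowest arrays, and its highest array fell among those of HFD. The difference was -0.19 (SE 0.09, limma adjusted p = 0.999). Uqcr11 and Uqcrq differed by -0.13 and -0.05.

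In complex IV the largest CR differences were -0.15 for Cox5b and 0.10 for Cox6a1. In ATP synthase they were -0.27 for Atp5g1 and 0.22 for Atp5j2, with limma adjusted p of 0.999 for both. The F1 subunits lay between -0.09 and 0.05 with the probe sets used. A second probe set of Atp5d, nearly as bright (mean 8.05 against 8.31), gave 0.32 where the one used gave 0.05. A second one of Atp5e gave -0.19 where the one used gave 0.01.

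Against the weight-matched CR group, 60 members had a higher and 17 a lower mean in CANA, and the difference of Cox6a1 was 0 to 4 decimals. The share of members with a higher mean was 76.9%, beside 48.8% of all tested genes. The median was 0.07, beside -0.004 for all tested genes. No member passed (limma, adjusted p under 0.05), where 0.15% of all tested genes did, and 1 member had an unadjusted p under 0.05, against 8.43% of all tested genes. That member was Ndufaf6, with a difference of 0.33 (SE 0.10, adjusted p = 0.349). Differences ran from -0.18 for Ndufa4l2 to 0.33 for Ndufaf6 with the probe sets used. A second probe set of Atp5d gave -0.38, where the one used gave -0.11. Arrays did not overlap in 2 members, Ndufaf6 and Ndufb7, and in 2.93% of all tested genes.

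The count of 60 depended on the arrays compared. Within serial numbers 1 to 8, 67 of 78 members were higher in CANA than in CR, with a median of 0.14. Within 9 to 14 there were 34 of 78, with a median of -0.01. The same sets gave CR minus HFD medians of -0.07 and 0.06, with 23 and 56 members above 0. For CANA minus HFD the medians were 0.045 and 0.06, with 49 and 47 members above 0. CANA has 2 of the 5 arrays numbered 1 to 5 and CR has 1. With the serial number as a covariate 54 members were higher in CANA than in CR (median 0.05), and with the set as a term 62 (median 0.09). With a second array number from the labels as the covariate, a setting chosen after seeing the data, there were 43 (median 0.02). CR minus HFD then had 58 members above 0, with a median of 0.05.

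Ndufb7, an accessory subunit on the intermembrane side of complex I, was the other member whose CANA arrays were all above CR. It measured 7.25, 7.22, 6.96 and 6.92 in CANA and 6.91, 6.80, 6.87, 6.84 and 6.90 in CR. The HFD arrays were at 7.24, 7.00, 6.78 and 6.81. Its 2 higher CANA and 2 higher HFD arrays were those with serial numbers 1 to 5. The CANA minus CR difference was 0.22 (SE 0.11, limma adjusted p = 0.594).

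Most members had lower values in arrays of later serial number. With group in the model, 66 of the 78 had a negative slope, beside 52.5% of all tested genes. Their median slope was -0.0145 log2 units per number, beside -0.0009. No member passed the test (limma, adjusted p under 0.05), where 0.376% of all tested genes did. At an unadjusted p under 0.05 there were 18 members, all with lower values at later numbers, against 11.9% of all tested genes in either direction. With each array centred on its median, 63 slopes were negative, and all genes then had 46.8% negative slopes. Along the second number the slopes were negative in 69 members and in 50.3% of all tested genes. No member passed there, and 4 of all tested genes did. That these arrays differ by the number was already known from an earlier look at the same values, so the counts are a description.

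**Figure D2:**
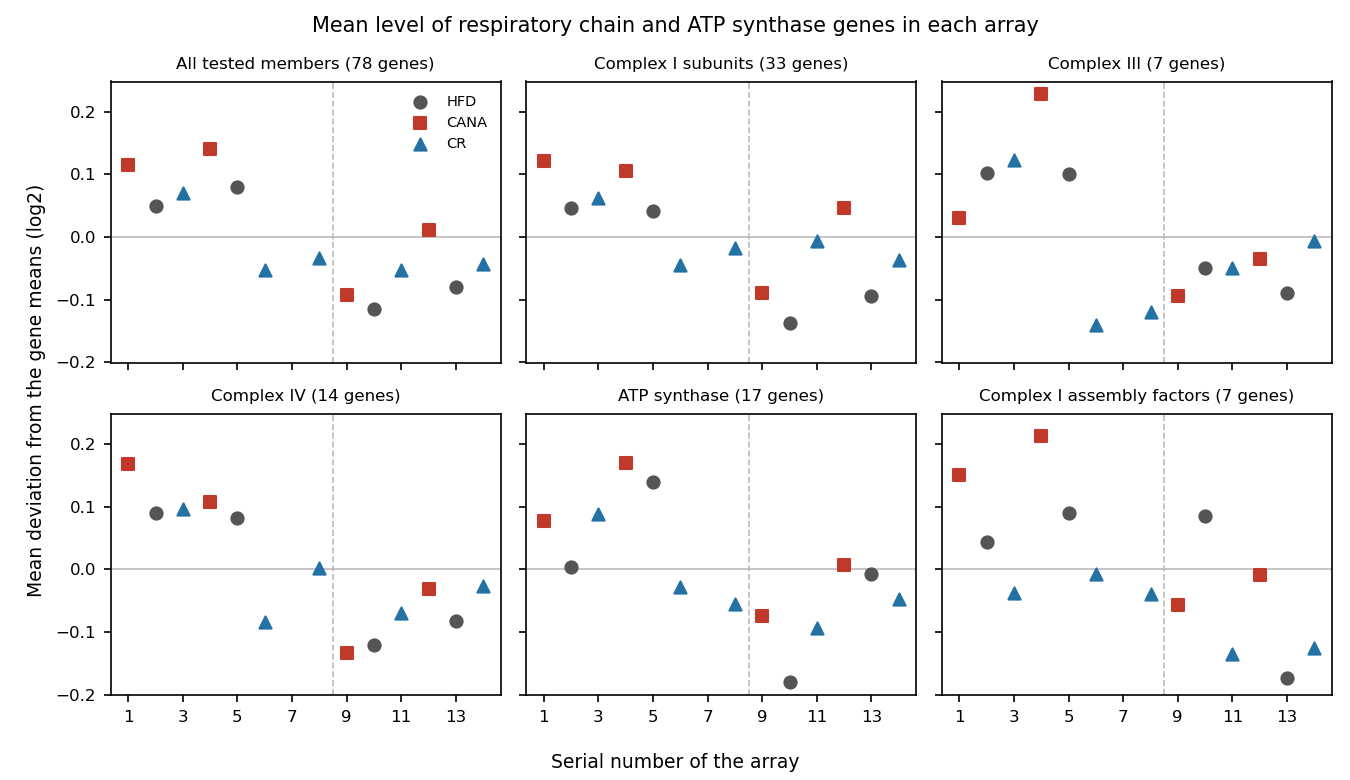
Mean deviation of the member genes from their own means over the 13 arrays (y axis, log2) against the serial number of the array (x axis), for all tested members and for each complex, with a symbol for each group. The dashed line separates numbers 1 to 8 from 9 to 14. In the panel of all members, the 5 arrays numbered 1 to 5 lie between 0.05 and 0.14 and no later array is above 0.011. Not every panel separates so: in complex I array 12 (0.046) is above array 5 (0.042). In ATP synthase array 12 (0.007) is above array 2 (0.004), and in the assembly factors array 10 (0.086) is above array 2 (0.043).

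By array, the mean deviation of all 78 members from their gene means was 0.115 and 0.141 in the CANA arrays numbered 1 and 4. It was 0.050 and 0.080 in the HFD arrays 2 and 5, and 0.071 in the CR array 3. The CR arrays 6 and 8 were at -0.053 and -0.034. The CANA arrays 9 and 12 were at -0.092 and 0.011, the HFD arrays 10 and 13 at -0.115 and -0.080, and the CR arrays 11 and 14 at -0.052 and -0.043. The 5 earliest arrays were thus the 5 highest, and values were lower from number 6 in CR, 9 in CANA and 10 in HFD. No HFD or CANA array lies between 5 and 9, so those groups cannot place the change more closely. At numbers 6 and 8 a level of the CR group cannot be told apart from the number. The same 5 arrays bear the lowest of a second number in the labels, 4 to 13 against 15 to 24 for the others, whose meaning is not given either. Of these 5, HFD and CANA have 2 each and CR has 1.

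Between the sets numbered 1 to 8 and 9 to 14, averaged over the 3 groups, the median member differed by -0.125 and 68 of 78 were lower in the later set, beside 52.5% of all tested genes. The difference was below 0 in all 3 groups for 38 members (48.7%), against 19.1% of all tested genes. By group the median was -0.15 in HFD, -0.17 in CANA and -0.03 in CR. The earlier CR arrays include numbers 6 and 8, with member means of -0.053 and -0.034. The earlier HFD and CANA arrays all have numbers up to 5, so the 3 medians do not compare like with like. The larger medians were those of Fo and the stalk (-0.20) and of the regular subunits of complex IV (-0.14). Complex III had -0.14 and the complex I accessory subunits -0.12. The smallest was that of F1 (-0.04), with the probe sets used. These sets came from the earlier look at the data and get no test.

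Cox4i1 had the smallest p of all members. In the arrays numbered 1 to 5 its values were 9.52, 9.42, 9.32, 9.55 and 9.25. In numbers 6 and 8 they were 9.31 and 9.10, and in 9 to 14 they were 9.16, 9.09, 9.11, 9.19, 8.79 and 9.04. Number 6 lay within the range of the first 5, and the 2 lowest values were those of numbers 13 and 14. The slope was -0.039 per number (SE 0.008, limma adjusted p = 0.0623), which is -0.51 over the 13 steps from 1 to 14. Without 1 array at a time the adjusted p was 0.0625 to 0.217. Cox4i1 passed where dimmer genes were left out up to the 60th percentile (adjusted p = 0.043), with quantile normalization repeated (0.0457) or with array weights (0.0348).

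Cox5a, which binds Cox4i1 in the enzyme, had values of 9.64, 9.45, 9.62, 9.52 and 9.55 in the arrays numbered 1 to 5. All later arrays lay between 9.20 and 9.32. The 2 sets of values did not overlap. Its slope was -0.031 (SE 0.009, limma adjusted p = 0.169). Cox7a2, another nuclear subunit of complex IV, had a slope of -0.032 (adjusted p = 0.230).

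Uqcrh, the hinge subunit that helps cytochrome c dock on complex III, showed the same separation. It measured 7.82, 7.90, 7.90, 7.92 and 7.90 in numbers 1 to 5 and 7.33 to 7.68 in all others. CR array 1 was at 7.90, apart from the other CR arrays at 7.50 to 7.61, and it is the 1 CR array among the first 5. The slope was -0.038 (SE 0.011, limma adjusted p = 0.156). The small complex III subunit Uqcr11 had a slope of -0.029 (adjusted p = 0.353). The core proteins Uqcrc1 and Uqcrc2 had slopes of 0.002 and 0.003.

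**Figure D3:**
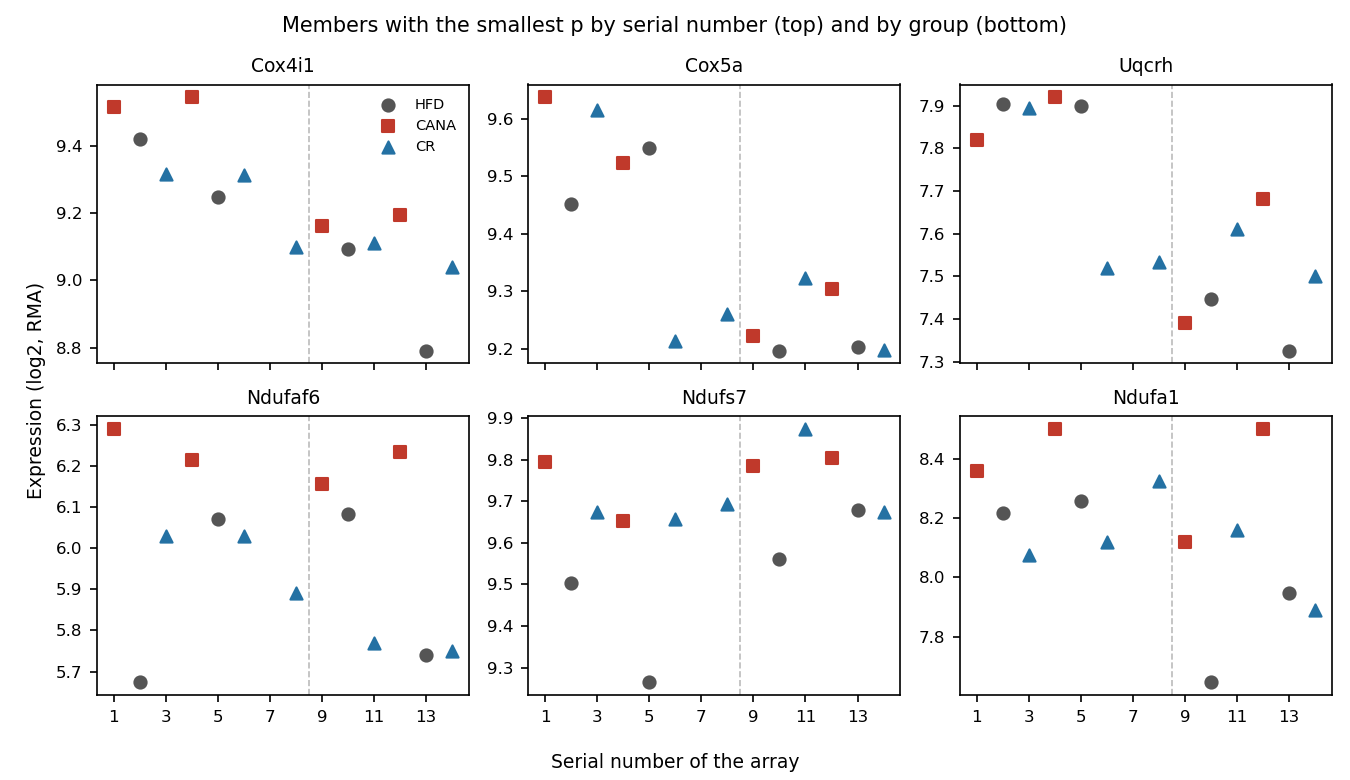
Log2 expression (y axis) of 6 members in each array against its serial number (x axis), with a symbol for each group and a dashed line between numbers 8 and 9. The upper row shows Cox4i1, Cox5a and Uqcrh, whose arrays numbered 1 to 5 are high, and the lower row Ndufaf6, Ndufs7 and Ndufa1, the 3 members with an unadjusted p under 0.05 between CANA and HFD, for which CANA arrays are mostly above those of HFD.

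In complex I the smallest p for the number belonged to the accessory subunits Ndufb3, Ndufb7 and Ndufa5, with slopes of -0.025, -0.024 and -0.031 and limma adjusted p of 0.226, 0.284 and 0.296. The 6 core subunits had slopes from -0.018 for Ndufv1 to 0.012 for Ndufs7, and none of them reached an unadjusted p under 0.05. All 7 assembly factors had negative slopes, of which Ndufaf2 and Ndufaf4 reached it. For ATP synthase, Atp5g2 and Atp5g3 had slopes of -0.029 and -0.024, and Atp5k, the small subunit e of the dimer interface, one of -0.027. Their limma adjusted p were 0.233, 0.395 and 0.249.

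Atp5k shows the size of this in single arrays. It measured 8.91, 8.58, 8.72, 8.98 and 8.59 in numbers 1 to 5. Later arrays lay between 8.37 and 8.65. Only the CR array 6 at 8.65 was above the lowest of the first 5. Its CANA minus HFD difference was 0.22 (limma adjusted p = 0.632), and the 2 highest CANA arrays were those numbered 1 and 4. The catalytic subunits Atp5a1 and Atp5b had slopes of -0.003 and 0.002. For Atp5d the slope was 0.003 in the probe set used and -0.033 in a second one. For Atp5e it was -0.022 and -0.018.

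**Figure D4:**
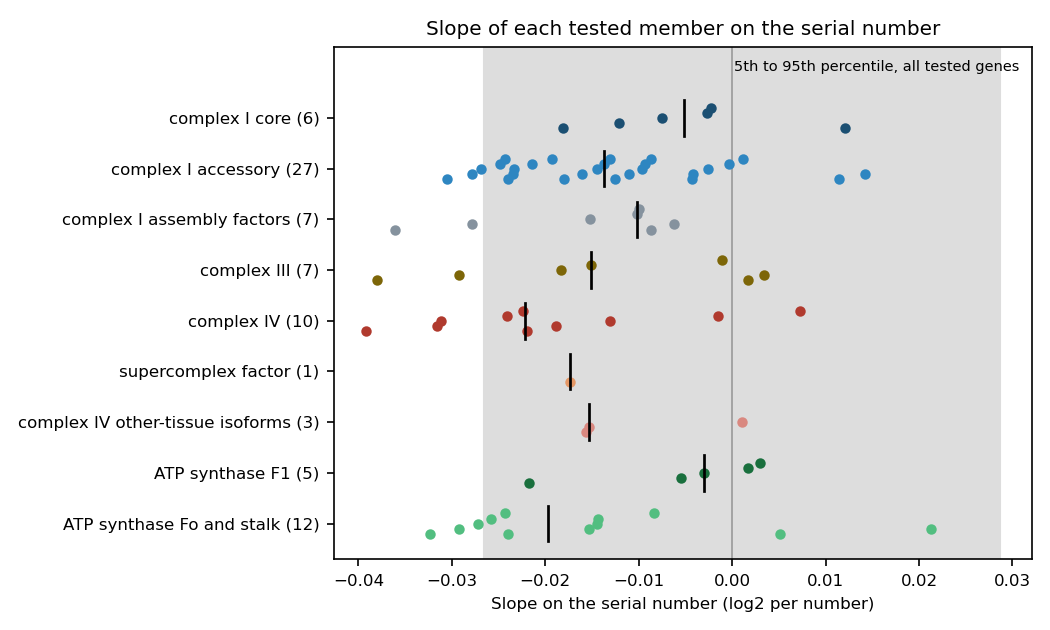
Slope of each tested member on the serial number (x axis, log2 per number, group in the model) by role (y axis, number of genes in brackets). Vertical bars are medians and the grey band spans the 5th to 95th percentile of all tested genes, -0.027 to 0.029. Most points are left of 0, and the F1 and complex I core rows lie nearest to it.

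Isoform pairs were compared within each gene only, since levels of different probe sets cannot be set against each other. Cox4i1 averaged 9.14 ± 0.27 (SD, n = 4) in HFD arrays, 9.36 ± 0.20 (n = 4) in CANA arrays and 9.18 ± 0.13 (n = 5) in CR arrays. Its counterpart Cox4i2, known from lung and low oxygen, averaged 4.04 ± 0.12, 3.92 ± 0.11 and 4.10 ± 0.33 in the same order. Neither passed in a group comparison. The liver isoform Cox6a1 averaged 12.61 ± 0.11, 12.71 ± 0.09 and 12.71 ± 0.09, and the muscle isoform Cox6a2 4.58 ± 0.18, 4.34 ± 0.25 and 4.44 ± 0.30. Ndufa4l2, a hypoxia-responsive relative of Ndufa4, averaged 4.65 ± 0.21, 4.54 ± 0.13 and 4.73 ± 0.19.

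Among regulators of these genes the coactivator Ppargc1a (PGC-1alpha) stood apart in CANA. It measured 7.13, 7.52, 8.52 and 8.01 in CANA and 6.08, 6.60, 6.51 and 6.53 in HFD. In CR the values were 6.56, 6.74, 6.08, 7.26 and 6.89. Every CANA array was above every HFD array, and 1 CR array lay within the CANA range. The CANA minus HFD difference was 1.37 (SE 0.26, limma adjusted p = 0.0514), just outside the threshold. Within serial numbers 1 to 8 it was 0.99 and within 9 to 14 it was 1.74. With the serial number in the model it was 1.42 with a limma adjusted p of 0.00856, and without 1 array at a time the adjusted p was 0.0189 to 0.161. CANA minus CR was 1.09 (adjusted p = 0.144) and CR minus HFD 0.28 (adjusted p = 0.999).

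Its slope on the serial number was 0.06 (limma adjusted p = 0.254), opposite in sign to that of most members. Nrf1, the gene of NRF-1, went the other way between groups. It measured 6.31, 6.30, 6.21 and 6.29 in HFD and 5.98, 6.07, 5.87 and 6.02 in CANA. The CR values were 6.14, 6.06, 6.09, 6.12 and 6.12, so that every HFD array was above all others. The differences from HFD were -0.29 in CANA (limma adjusted p = 0.192) and -0.17 in CR (adjusted p = 0.999). The coactivator Ppargc1b had a slope of -0.039 on the serial number (adjusted p = 0.0633). None of the 12 regulators passed in any of the 3 group comparisons.

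Complex II, which the name rule does not cover, gave small differences but for Sdhc, a subunit of its membrane anchor. Sdha, Sdhb and Sdhd differed from HFD by -0.04, 0.01 and 0.08 in CANA and by -0.05, -0.06 and 0.10 in CR. Sdhc measured 8.34, 8.53, 8.42 and 9.38 in HFD and 8.53, 9.20, 9.32 and 9.40 in CANA. It was at 8.48, 9.21, 9.12, 8.92 and 9.04 in CR. Low and high arrays occurred in every group. The CANA minus HFD difference was 0.45 (SE 0.23, limma adjusted p = 0.613), and the slope on the serial number 0.06 (adjusted p = 0.150). Cycs and Cyc1, the genes of cytochromes c and c1, differed from HFD by 0.06 and -0.08 in CANA.

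Of 42 tested assembly factors of all complexes, which include the 7 of complex I above, none passed in a group comparison. Uqcc3, an assembly factor of complex III, differed by 0.22 between CANA and HFD (limma adjusted p = 0.486). Uqcc2, another factor of complex III, had a slope of -0.041 on the serial number (adjusted p = 0.0501). Among 7 carriers and coupling genes, Etfdh, which feeds electrons from fatty acid oxidation to ubiquinone, differed by 0.23 between CANA and CR (adjusted p = 0.544). Its CANA arrays, at 10.57 to 10.73, were all above the CR arrays, at 10.28 to 10.53.

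The mitochondrial ribosome, which translates the subunits encoded by mitochondrial DNA, also had mostly negative slopes. Of 70 tested genes 57 had a negative slope on the serial number, with a median of -0.0122, and none passed. Of 49 cytosolic ribosomal protein genes 38 did, with a median of -0.0109. Of 68 small nucleolar RNA genes 63 did, with a median of -0.0716. Their mean deviation was highest, 0.25 to 0.60, in 4 of the 5 arrays numbered 1 to 5, and array 4 was at -0.026. The 8 hepatocyte markers had a median slope of 0.004, with array means between -0.093 and 0.084 and none passing. The 7 Kupffer cell markers all had negative slopes, with array means between -0.72 and 0.43 and none passing. Of 6 sinusoidal endothelium markers 5 had positive slopes (median 0.007), as had all 3 cholangiocyte markers (median 0.013). Each of these lists had 1 gene at an unadjusted p under 0.05 and none passing, and 5 of 7 stellate cell slopes were negative. In whole liver, fewer cells of a type and less RNA per cell cannot be told apart. The part of these gene groups in the members' slopes was not tested.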

How the data were processed

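RNA was labelled by the WT Plus protocol per the labels. The deposited log2 values were made by the authors with RMA (robust multi-array average) in Affymetrix Expression Console, per the submitters' processing notes, which name no version. RMA corrects background and quantile-normalizes, which can mask a shift shared by most genes. The table holds 41345 probe sets in 13 arrays. Precision is limited by the number of arrays, and no scanner files were used.

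By the platform annotation, 23521 probe sets had exactly 1 gene symbol. Dim genes, below the 40th percentile of gene means, were not tested. One limma 3.58.1 fit in R 4.3.3 covered all 13 arrays, with a mean per group and no covariate. The slope on the serial number came from a fit with group and number. Tests were two-sided with Benjamini-Hochberg adjustment over 13308 genes, and a gene was called at an adjusted p under 0.05. The fit was tested on simulated data.

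The members and gene lists were chosen with earlier results of these data known. Named members are the 3 with the smallest p in each complex and comparison, the core subunits and the isoform pairs. A few others, such as Ndufaf2 and Ndufaf4, were named beyond this rule. From each other list at most 3 genes with the smallest p were eligible, with Ppargc1a, Sdha to Sdhd, Cyc1 and Cycs named in any case. Motif letters were matched on both strands. The other settings tried changed the filter, scaling, probe set choice, variance model, array weights, threshold, covariates and arrays. The cell type lists of sinusoidal endothelium, stellate cells, cholangiocytes, lymphocytes, muscle, fat and pancreas (6, 7, 3, 2, 5, 2 and 1 tested genes) held no gene that passed in any comparison, and no erythroid gene was tested.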

Additional observations from a re-analysis of the deposited data

Results flagged for a closer look

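In 10 of the 135 groups examined for 45 named members, 1 array lay far from the others of its group by Dixon's criterion, where chance alone gives about 5 in 100. In complex I, Ndufs1 was 8.60 in CANA replicate 2, with the other CANA arrays at 8.22 to 8.29. Ndufs7 was 9.65 in CANA replicate 2 (others 9.78 to 9.80) and 9.87 in CR replicate 4 (others 9.66 to 9.69). Ndufs8 was 8.96 in HFD replicate 1 (others 8.87 to 8.89). Ndufa8 was 10.04 in CR replicate 2 (others 9.74 to 9.83). In complex III, Uqcrfs1 was 7.05 in HFD replicate 1 (others 6.83 to 6.86) and Uqcrh 7.90 in CR replicate 1 (others 7.50 to 7.61). Ndufa4 was 10.89 in CR replicate 1 (others 10.73 to 10.76). In ATP synthase, Atp5l was 8.95 in CANA replicate 3 (others 9.54 to 9.61) and 8.66 in CR replicate 4 (others 9.19 to 9.26). Of these arrays, CANA replicate 2, HFD replicate 1 and CR replicate 1 have serial numbers up to 5.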

How the results depend on the processing

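No member passed in a group comparison under any setting tried. For the serial number, 1 member, Cox4i1 in each case, passed under the filter at the 60th percentile, with quantile normalization repeated, with array weights and at an adjusted p under 0.10, and 0 otherwise (limma adjusted p 0.043, 0.0457, 0.0348 and 0.0623). The median member difference ran from 0.03 to 0.06 for CANA minus HFD over the alternatives (0.01 to 0.09 without 1 array at a time). For CANA minus CR it ran from -0.01 to 0.14 (0.02 to 0.10), and for CR minus HFD from -0.07 to 0.06 (-0.03 to 0.03). The lowest CR minus HFD value, -0.074, was that of serial numbers 1 to 8 alone. With the replicate number as a block the medians were 0.049, 0.0017 and 0.06 for CANA minus HFD, CR minus HFD and CANA minus CR, and 0 members passed. Equal replicate numbers were not taken as pairs in the main fit, as the labels state no pairs. Of 12 same-numbered pairs 7 correlated above 0.1 (range -0.15 to 0.30). Those values cannot decide the question, since arrays of unlike number were not correlated beside them. Single members were recomputed without the filter, with arrays centred, as means of probe sets, with the block, with either number or the set in the model and within each set. Of 408 such values of 52 named member results 10 turned sign, and 0 passed, but the settings under which Cox4i1 passed are not among them. The second bracketed number as a covariate, and the pseudogene Uqcrh-ps1 kept as a member, were settings chosen after seeing the data. With that covariate the CANA minus CR median was 0.02. The number of arrays limits all of this, as signal over background was not examined.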
